A study of Homo sapiens with 6 samples.

Results

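Transcript levels were compared for 38 genes linked to DNA methylation or histone H3 lysine 9 (H3K9) methylation. The comparison set 3 arrays labelled HEK-BAHD1 against 3 arrays labelled HEK-CT. A probe set, the group of probes that measures a transcript, was taken where its annotation named 1 of these genes and no other, by its current or an older symbol. All 38 genes had such a probe set, and 41 probe sets were found among the 28869 of the array. The genes form a DNA methylation side of 15 genes and an H3K9 side of 23 genes. The H3K9 side also counts the transcription factor SP1, the HP1 anchor LBR and the histone chaperone subunit CHAF1A. Where a gene had several probe sets, the brightest over the 6 arrays stood for it.

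Cytosine methylation at CpG sites is set by the de novo enzymes DNMT3A and DNMT3B and copied after replication by DNMT1, which UHRF1 guides to hemimethylated sites. TET enzymes oxidize the methyl group, and the glycosylase TDG then removes the oxidized base. Methylation of H3K9, placed by enzymes such as SETDB1, SUV39H1 and SUV39H2, is bound by HP1 proteins and spread over silent chromatin, while KDM3 and KDM4 enzymes take it off. These systems are known to recruit each other, and BAHD1 is a protein of repressive chromatin of this kind.

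The arrays were made, within a study of BAHD1 and DNA methylation, to find which genes change when BAHD1 is overexpressed in HEK293, an established line from human embryonic kidney. Both lines derive from a HEK293 line of the Flp-In T-REx system, which holds a defined recombination site, and both were kept in hygromycin. HEK-BAHD1 carries a single copy of human BAHD1 cDNA driven by the CMV promoter. HEK-CT carries, according to the sample labels, a β-galactosidase insert that is out of frame, and, according to the paper, the empty vector. Each line is a stable pool of transfectants grown in separate flasks, so the p-values cover variation among flasks and not among independently made lines. According to the supplement, RNA of HEK-BAHD1 replicate 2 came from a later passage than that of HEK-BAHD1 replicate 1 and HEK-CT. The supplement names no further HEK-BAHD1 replicate and does not say whether these numbers are those of the arrays. Total RNA was hybridized to Affymetrix HuGene 1.0 ST arrays, and the deposited values are log2 signals that the authors made with RMA. RNA from a mixed culture cannot show whether fewer cells or less RNA per cell lies behind a lower signal.

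The overexpressed gene checked the labels. BAHD1 had log2 signals of 6.75, 7.00 and 6.76 on the arrays labelled HEK-BAHD1, against 10.06, 9.81 and 9.93 on those labelled HEK-CT. The groups did not overlap, and BAHD1 was lower where the label says that it was overexpressed (log2 fold change -3.10, SE 0.0925, limma adjusted p = 3.12e-05). This goes against the labels, so every direction below is that of the labels as deposited and would turn round if they were exchanged. IRS4, a signalling adaptor known for HEK293, had 11.48, 11.52 and 11.51 on HEK-BAHD1 arrays, against 10.84, 10.70 and 10.84 on HEK-CT arrays, and was called higher (log2 fold change 0.71, limma adjusted p = 0.000866). KRT8 was at 11.41 to 11.69 over the 6 arrays, whereas the kidney factors PAX2 and PAX8 were dim, at 5.60 to 5.98 and 5.24 to 5.48. Among 8 HEK293 markers, IRS4 included, 3 were called higher and 1 lower. Array medians lay between 5.46 and 5.56 over all probe sets. Over the probe sets that name a gene they were 6.43, 6.46 and 6.46 on HEK-BAHD1 arrays, against 6.42, 6.40 and 6.42 on HEK-CT arrays, slightly higher on each HEK-BAHD1 array. Fibroblast, blood cell and hepatocyte marker lists of 6, 5 and 4 measured genes had signals of 2.86 to 6.71, 3.05 to 5.18 and 3.09 to 5.28, with 1, 1 and 0 genes called lower and none called higher.

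A gene was called where limma gave an adjusted p under 0.05 over all 21062 probe sets that name a gene and the group medians differed by more than 0.2, the threshold of the study's methods. Of the 38 genes, 5 were called lower on the arrays labelled HEK-BAHD1, none was called higher, and 33 were not called. The lower genes were DNMT1 and UHRF2 on the DNA methylation side, and ATF7IP, ATF7IP2 and MPHOSPH8 on the H3K9 side. They make up 13.2% of the 38 genes, and over all probe sets tested 6.39% were called lower and 6.79% higher. The shares over all probe sets, here and below, include probe sets dimmer than any of the 38 genes, at 5.91 to 11.91. Leaving out the dimmest 30% raised limma's calls from 1345 to 1571 lower and from 1430 to 1570 higher, although fewer probe sets were tested. The same 5 of the 38 genes were called lower. Shares among probe sets of like brightness were not computed. At an unadjusted p under 0.05 from limma, 13 genes were lower and 5 higher, whereas the local pooled error (LPE) test that the study's methods name called 6 lower and none higher. Of all probe sets tested, LPE called 7.41% lower and 6.29% higher, and limma's unadjusted p was under 0.05 for 14.8% lower and 14.5% higher. The groups did not overlap for 14 genes lower and 6 genes higher on HEK-BAHD1 arrays, together 20 of 38, against 33.6% of all probe sets in either direction.

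The promoters of the called genes are shown here because CpG methylation acts on such sequence and because GC boxes are the sites known for SP1, which is among the 38 genes. RefSeq starts on GRCh38.p14 were found for 36 of the 38 genes, including 4 of the 5 called. The 250 bases before the most upstream start are given 5′ to 3′ on the strand of the gene, with every GC box (GGGCGG or its reverse complement CCGCCC) in capitals. They lie at chr12:14365432-14365681 on the plus strand for ATF7IP, chr19:10194954-10195203 on the minus strand for DNMT1, chr13:19633409-19633658 on the plus strand for MPHOSPH8 and chr9:6412949-6413198 on the plus strand for UHRF2. RefSeq lists 6 starts for ATF7IP and 1 for each of the other 3.
ATF7IP: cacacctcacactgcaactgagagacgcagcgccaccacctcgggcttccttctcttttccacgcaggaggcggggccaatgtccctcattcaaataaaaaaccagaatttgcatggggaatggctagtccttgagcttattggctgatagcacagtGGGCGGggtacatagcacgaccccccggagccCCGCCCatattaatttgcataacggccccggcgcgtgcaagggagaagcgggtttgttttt
DNMT1: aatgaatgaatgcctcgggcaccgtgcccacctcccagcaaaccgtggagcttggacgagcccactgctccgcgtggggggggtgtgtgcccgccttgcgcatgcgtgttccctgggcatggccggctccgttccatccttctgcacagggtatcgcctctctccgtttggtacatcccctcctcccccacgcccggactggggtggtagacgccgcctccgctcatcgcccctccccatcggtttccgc
MPHOSPH8: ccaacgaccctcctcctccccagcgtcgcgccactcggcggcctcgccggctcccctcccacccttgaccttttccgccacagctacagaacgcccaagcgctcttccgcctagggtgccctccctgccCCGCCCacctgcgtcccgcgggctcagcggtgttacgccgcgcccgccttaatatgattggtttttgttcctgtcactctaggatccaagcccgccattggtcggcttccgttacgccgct
UHRF2: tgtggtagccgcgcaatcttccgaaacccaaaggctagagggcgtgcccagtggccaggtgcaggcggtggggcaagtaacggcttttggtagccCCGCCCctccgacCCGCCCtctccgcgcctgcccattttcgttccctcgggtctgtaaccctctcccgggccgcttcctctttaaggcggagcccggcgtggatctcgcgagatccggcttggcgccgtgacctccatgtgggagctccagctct
ATF7IP and UHRF2 each held 2 GC boxes, MPHOSPH8 held 1, and the DNMT1 window held none. The windows of ATF7IP, DNMT1, MPHOSPH8 and UHRF2 contained 14, 21, 26 and 23 CG dinucleotides. Over the 36 promoters the median was 21.5 CG dinucleotides, against 10 over all 27305 promoters of the same length. A GC box occurred in 19 of the 36 (52.8%) and in 42.2% of all promoters. An E2F core (GCGGGAA or TTCCCGC), a motif of replication genes, was found in 6 of the 36 (16.7%), namely CDCA7, CHAF1A, HELLS, TET3, UHRF1 and ZBTB4, and in 5.56% of all promoters. None of the 4 called genes with a promoter held that core. These matches describe letters and were not tested as binding sites.

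**Figure D1:**
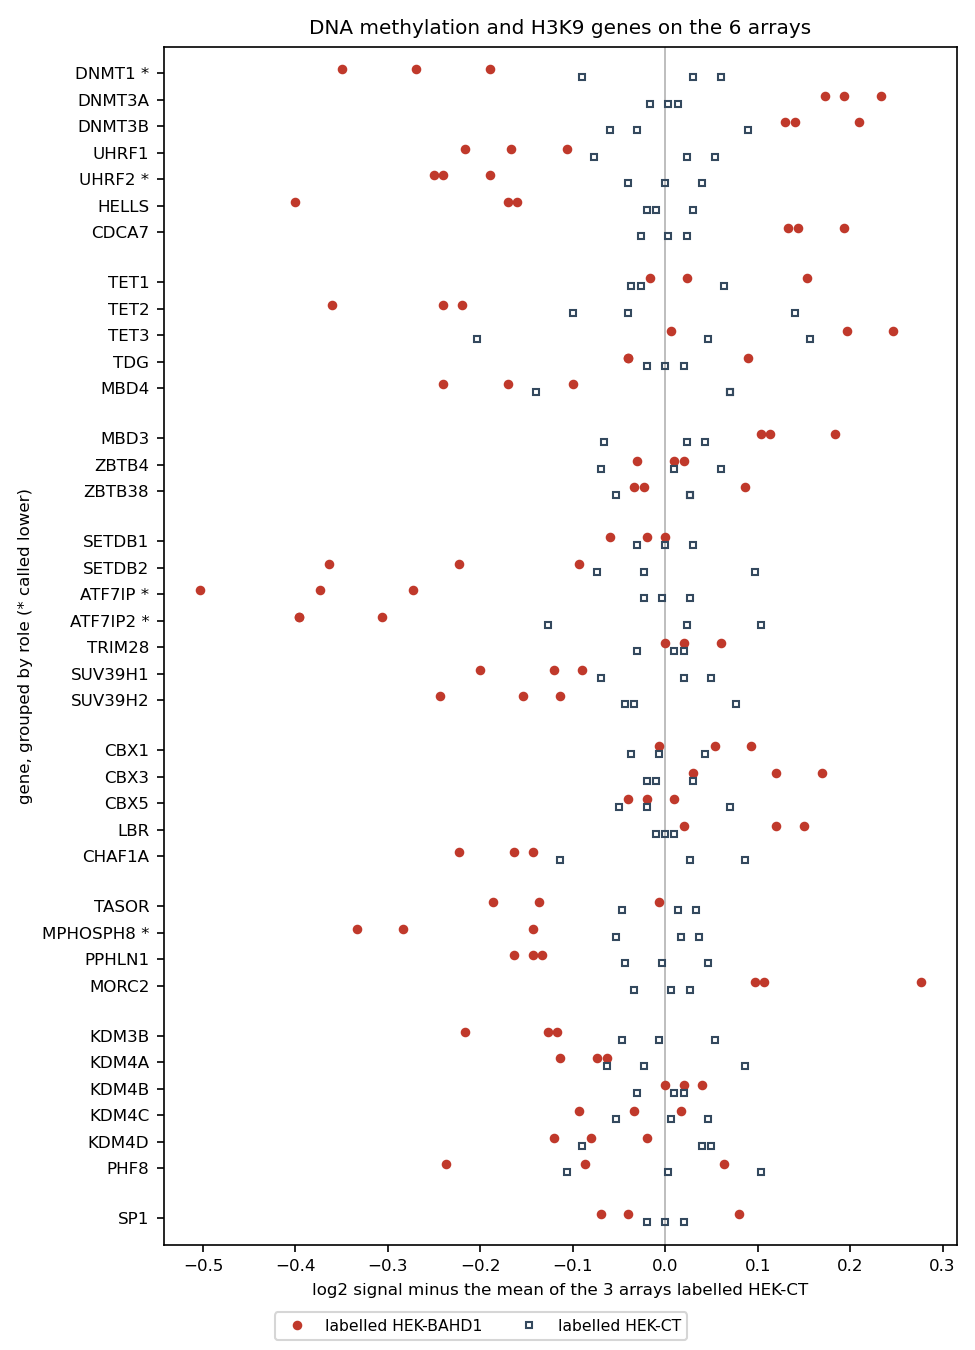
Log2 signal of each of the 38 genes (rows, grouped by role) on each array, minus the mean of the 3 arrays labelled HEK-CT (horizontal axis). Filled circles are arrays labelled HEK-BAHD1, open squares arrays labelled HEK-CT, and a star marks the 5 genes called lower. On average the circles of ATF7IP and ATF7IP2 lie farthest to the left (-0.38 and -0.37), and those of DNMT3A, DNMT3B and CDCA7 lie to the right of all their squares.

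The genes that set and maintain DNA methylation lay on both sides of 0. For all 7 of them the groups did not overlap, lower in 4 (DNMT1, UHRF1, UHRF2 and HELLS) and higher in 3 (DNMT3A, DNMT3B and CDCA7). Over all probe sets tested, 16.9% were lower and 16.7% higher without overlap. Only DNMT1 and UHRF2 of the 7 passed the call.

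DNMT1, the maintenance methyltransferase, had log2 signals of 9.90, 9.98 and 10.06 on the arrays labelled HEK-BAHD1, against 10.31, 10.16 and 10.28 on those labelled HEK-CT. The brightest HEK-BAHD1 array stayed below the dimmest HEK-CT array. DNMT1 fell by 0.27 on the log2 scale (SE 0.0674, limma adjusted p = 0.0384). UHRF1, which reads hemimethylated CpG sites and brings DNMT1 to them, had 9.90, 10.01 and 9.95 on HEK-BAHD1 arrays, against 10.14, 10.04 and 10.17 on HEK-CT arrays. Its groups touched within 0.03 without overlapping, and the log2 fold change of -0.16 was not called (limma adjusted p = 0.121). A second, dim UHRF1 probe set ran the other way, with 4.52, 4.48 and 4.68 on HEK-BAHD1 arrays, against 4.34, 4.33 and 4.36 on HEK-CT arrays (log2 fold change 0.22, limma adjusted p = 0.0694).

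UHRF2, the paralog of UHRF1, had 8.17, 8.18 and 8.23 on HEK-BAHD1 arrays, against 8.42, 8.38 and 8.46 on HEK-CT arrays. Both groups were tight and well apart. UHRF2 fell by 0.23 on the log2 scale (SE 0.0528, limma adjusted p = 0.0307). HELLS, a chromatin remodeler needed for DNA methylation of repeats, had 9.82, 9.83 and 9.59 on HEK-BAHD1 arrays, against 9.98, 10.02 and 9.97 on HEK-CT arrays. Its HEK-BAHD1 replicate 3 lay farther down than the other two, and the log2 fold change of -0.24 was not called (limma adjusted p = 0.0732). CDCA7, the zinc finger protein that activates HELLS, lay on the other side of 0 from its partner, with 8.60, 8.55 and 8.54 on HEK-BAHD1 arrays, against 8.41, 8.43 and 8.38 on HEK-CT arrays. All its HEK-BAHD1 values were the higher ones, with a log2 fold change of 0.16 that was not called (limma adjusted p = 0.0858).

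The de novo enzymes had their higher values on the arrays labelled HEK-BAHD1. DNMT3A had 6.83, 6.87 and 6.81 there, against 6.65, 6.62 and 6.64 on HEK-CT arrays. The replicates of each label lay close together and the groups were separate (log2 fold change 0.20, SE 0.0503). Its limma adjusted p was 0.0392, the medians differed by 0.19, under the threshold, and DNMT3A was not called. Its limma adjusted p was 0.0175 without the dimmest 30% of probe sets and 0.038 with the mean of the probe sets of each gene. It was 0.0563 with a variance trend, 0.0702 with centred arrays and 0.0618 after quantile normalization. With probe sets that name no gene also tested it was 0.0663, with the replicate number as a block 0.101, and without 1 array 0.0713 to 0.114. LPE gave DNMT3A an adjusted p of 0.341. DNMT3B had 6.52, 6.44 and 6.45 on HEK-BAHD1 arrays, against 6.40, 6.28 and 6.25 on HEK-CT arrays. Its groups were separated by 0.04, and the log2 fold change of 0.16 was not called (95% interval 0.02 to 0.30, limma adjusted p = 0.130).

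**Figure D2:**
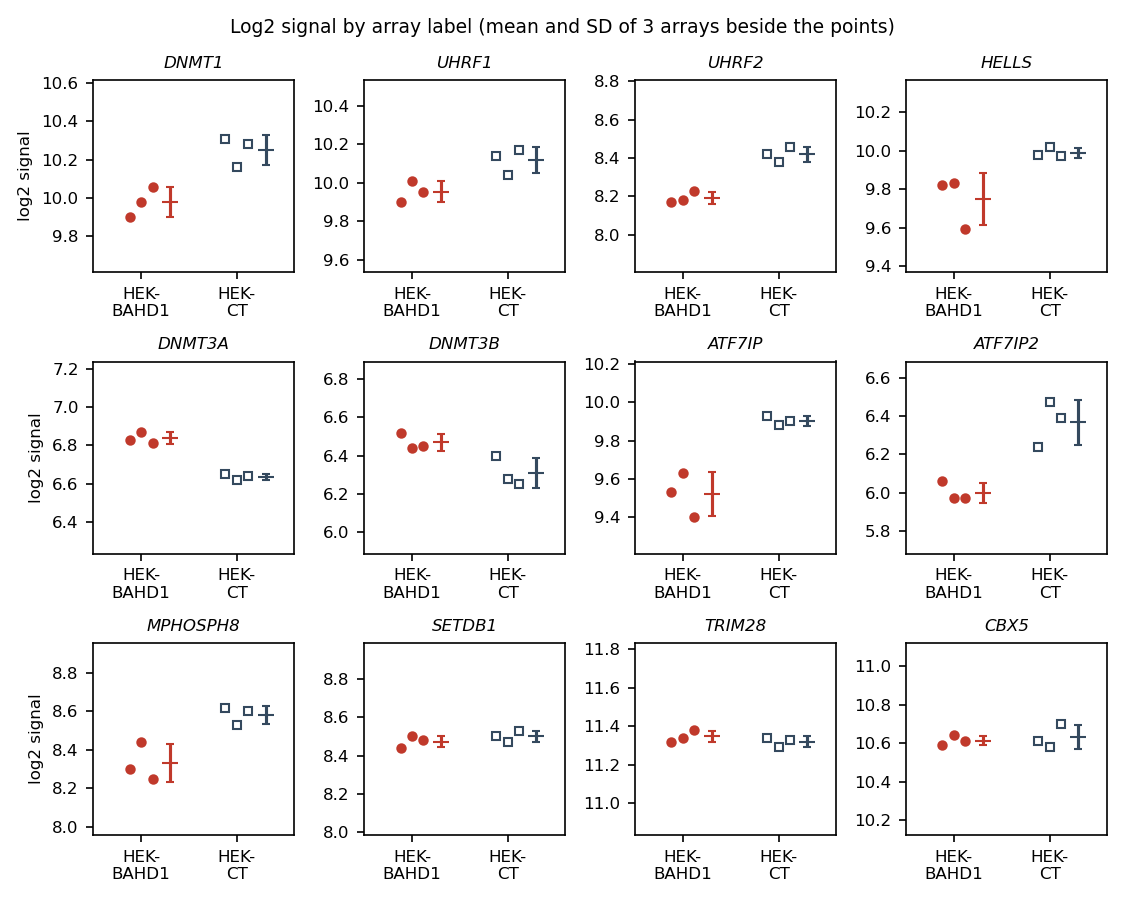
Log2 signal (vertical axis, a span of 1 in every panel) of 12 genes on the arrays labelled HEK-BAHD1 (filled circles) and HEK-CT (open squares), with the mean and SD of 3 arrays beside the points. DNMT1, UHRF2, ATF7IP, ATF7IP2 and MPHOSPH8 are lower on HEK-BAHD1 arrays, DNMT3A and DNMT3B lie higher there, and SETDB1, TRIM28 and CBX5 overlap.

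Among the 5 genes that oxidize or excise methylated cytosine, limma called none higher and none lower. At an unadjusted p under 0.05 only TET2 was lower, and LPE called MBD4 lower and no other of the 5. TET2, an oxidizing enzyme, had 6.58, 6.44 and 6.56 on HEK-BAHD1 arrays, against 6.70, 6.76 and 6.94 on HEK-CT arrays. Every HEK-BAHD1 value was below every HEK-CT value, with a log2 fold change of -0.27 (limma adjusted p = 0.0568). The other TET2 probe set had 5.23, 5.72 and 5.45 on HEK-BAHD1 arrays, against 5.77, 5.78 and 5.82 on HEK-CT arrays, with a log2 fold change of -0.32 (limma adjusted p = 0.106). Both TET2 probe sets thus lay lower without passing the test, and TET2 was called lower when the arrays were centred on their medians or normalized again by quantiles and when the mean of its probe sets was used. TET1 and TET3, its paralogs, had log2 fold changes of 0.05 and 0.15 with overlapping groups. TDG, which removes oxidized methylcytosine, was at 0.00 (95% interval -0.13 to 0.14). MBD4, a glycosylase that removes thymine left when methylcytosine loses its amino group, had 8.03, 8.10 and 7.96 on HEK-BAHD1 arrays, against 8.06, 8.27 and 8.27 on HEK-CT arrays. HEK-CT replicate 1 lay within the HEK-BAHD1 values, and limma gave a log2 fold change of -0.17 (adjusted p = 0.185).

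No gene of the methyl-CpG reader families was called by limma or LPE. MBD3, a subunit of the NuRD corepressor, had 8.19, 8.18 and 8.26 on HEK-BAHD1 arrays, against 8.10, 8.01 and 8.12 on HEK-CT arrays. The groups were separate, and the log2 fold change of 0.13 passed an unadjusted p only (limma adjusted p = 0.169). The zinc finger readers ZBTB4 and ZBTB38 were at 0.00 and 0.01 with overlapping groups.

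On the H3K9 side the largest fold changes were those of the SETDB1 cofactors. ATF7IP, which keeps SETDB1 stable in the nucleus, had 9.53, 9.63 and 9.40 on HEK-BAHD1 arrays, against 9.93, 9.88 and 9.90 on HEK-CT arrays. The groups were far apart relative to their spread, although HEK-BAHD1 arrays varied more than HEK-CT arrays. ATF7IP fell by 0.38 on the log2 scale (SE 0.069, limma adjusted p = 0.0128). ATF7IP2, its paralog, had 6.06, 5.97 and 5.97 on HEK-BAHD1 arrays, against 6.24, 6.47 and 6.39 on HEK-CT arrays. All HEK-BAHD1 values were again the lower ones. ATF7IP2 fell by 0.37 on the log2 scale (SE 0.072, limma adjusted p = 0.0177).

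SETDB1 itself, the H3K9 methyltransferase that ATF7IP binds, had 8.44, 8.50 and 8.48 on HEK-BAHD1 arrays, against 8.50, 8.47 and 8.53 on HEK-CT arrays. The values interleaved, and the 95% interval of its log2 fold change of -0.03 was -0.15 to 0.09. TRIM28, the corepressor through which zinc finger proteins of the KRAB type bring in SETDB1, had 11.32, 11.34 and 11.38 on HEK-BAHD1 arrays, against 11.34, 11.29 and 11.33 on HEK-CT arrays. It overlapped likewise, with a log2 fold change of 0.03 (95% interval -0.09 to 0.15) that was -0.01 with arrays centred on their medians. SETDB2, a related enzyme, had 7.16, 7.03 and 6.89 on HEK-BAHD1 arrays, against 7.18, 7.35 and 7.23 on HEK-CT arrays. Its groups were separated by 0.02 only, and the log2 fold change of -0.23 was not called (limma adjusted p = 0.116).

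SUV39H1, which trimethylates H3K9 at pericentromeres, had 8.51, 8.48 and 8.40 on HEK-BAHD1 arrays, against 8.65, 8.53 and 8.62 on HEK-CT arrays. SUV39H2, its paralog, had 9.39, 9.43 and 9.30 on HEK-BAHD1 arrays, against 9.50, 9.62 and 9.51 on HEK-CT arrays. For both enzymes all HEK-BAHD1 values were below all HEK-CT values, with log2 fold changes of -0.14 and -0.17 that were not called (limma adjusted p = 0.177 and 0.117). Of the 7 methyltransferases and cofactors, 2 were called lower and none higher, and for 5 the HEK-BAHD1 arrays were all lower. Over all probe sets tested, 6.39% were called lower and 6.79% higher, and for 16.9% the HEK-BAHD1 arrays were all lower.

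HP1 proteins, which bind methylated H3K9, and their anchors gave no call by limma or LPE. CBX1 (HP1β) had 8.29, 8.35 and 8.39 on HEK-BAHD1 arrays, against 8.29, 8.26 and 8.34 on HEK-CT arrays. CBX3 (HP1γ) had 9.83, 9.78 and 9.69 on HEK-BAHD1 arrays, against 9.64, 9.65 and 9.69 on HEK-CT arrays. Both overlapped, with log2 fold changes of 0.05 (95% interval -0.08 to 0.18) and 0.11 (-0.03 to 0.24). CBX5 (HP1α) had 10.59, 10.64 and 10.61 on HEK-BAHD1 arrays, against 10.61, 10.58 and 10.70 on HEK-CT arrays. Its values interleaved, with a log2 fold change of -0.02 (95% interval -0.15 to 0.11). LBR, which ties HP1 to the inner nuclear membrane, had 11.91, 11.88 and 11.78 on HEK-BAHD1 arrays, against 11.76, 11.77 and 11.75 on HEK-CT arrays. These groups were separated by 0.01 (log2 fold change 0.10). CHAF1A, the large subunit of the histone chaperone CAF-1, had 10.01, 10.09 and 10.07 on HEK-BAHD1 arrays, against 10.32, 10.12 and 10.26 on HEK-CT arrays. CHAF1A was the only gene of these 5 with an unadjusted p under 0.05, at a log2 fold change of -0.18 (limma adjusted p = 0.126).

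The HUSH complex joins TASOR, MPHOSPH8 and PPHLN1 and silences repeats through SETDB1 and the ATPase MORC2. MPHOSPH8, its reader of methylated H3K9, had 8.30, 8.44 and 8.25 on HEK-BAHD1 arrays, against 8.62, 8.53 and 8.60 on HEK-CT arrays. HEK-BAHD1 replicate 2 came closest to the HEK-CT values without reaching them. MPHOSPH8 fell by 0.25 on the log2 scale (SE 0.0664, limma adjusted p = 0.0445). TASOR, the scaffold of the complex, overlapped between labels at a log2 fold change of -0.11. PPHLN1 had 9.83, 9.84 and 9.81 on HEK-BAHD1 arrays, against 9.97, 9.93 and 10.02 on HEK-CT arrays. Its groups were separate by 0.09 but not called (log2 fold change -0.15, limma adjusted p = 0.109). MORC2 had 9.37, 9.54 and 9.36 on HEK-BAHD1 arrays, against 9.27, 9.23 and 9.29 on HEK-CT arrays. It was the only HUSH-linked gene with all HEK-BAHD1 values higher, at a log2 fold change of 0.16 (limma adjusted p = 0.152).

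No H3K9 demethylase was called by limma or LPE. KDM3B, which removes mono- and dimethyl groups, had 9.86, 9.87 and 9.77 on HEK-BAHD1 arrays, against 10.04, 9.94 and 9.98 on HEK-CT arrays. It was the only demethylase whose groups were separate and whose unadjusted p was under 0.05 (log2 fold change -0.15, limma adjusted p = 0.124). KDM4A, KDM4B, KDM4C and KDM4D, which act on di- and trimethylated H3K9, had log2 fold changes of -0.08, 0.02, -0.04 and -0.07 with overlapping groups. PHF8, a demethylase of lower H3K9 methylation states, was at -0.09 (95% interval -0.30 to 0.12). SP1, a transcription factor that binds GC boxes, had 9.24, 9.12 and 9.09 on HEK-BAHD1 arrays, against 9.14, 9.18 and 9.16 on HEK-CT arrays. The HEK-CT values lay inside the range of the HEK-BAHD1 values, and the log2 fold change was -0.01 (95% interval -0.15 to 0.13).

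The DNA methylation and H3K9 sides were then set beside each other. On the DNA methylation side 2 of 15 genes were called lower and none higher (LPE called 3 lower and none higher, and 5 were lower and 4 higher at an unadjusted p under 0.05). Their median log2 fold change was 0.003, as was that of all probe sets tested. On the H3K9 side 3 of 23 genes were called lower and none higher (LPE called 3 lower and none higher, and 8 were lower and 1 higher at an unadjusted p under 0.05). Their median was -0.083, and it was -0.12 with centred arrays and -0.057 after quantile normalization. The shares called lower were 13.3% of the DNA methylation genes and 13.0% of the H3K9 genes. Over all probe sets tested, limma called 6.39% lower and 6.79% higher, and LPE called 7.41% lower and 6.29% higher. At an unadjusted p under 0.05 from limma, 14.8% of all probe sets were lower and 14.5% higher. Beyond the calls, HEK-BAHD1 arrays were all lower for 5 and all higher for 4 of the 15 DNA methylation genes. They were all lower for 9 and all higher for 2 of the 23 H3K9 genes. Of all probe sets tested, 16.9% were all lower and 16.7% all higher. The difference between the sides was not tested. Centring the arrays moved the median of all probe sets by -0.037, to -0.033, and that of the DNA methylation genes likewise to -0.033.

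**Figure D3:**
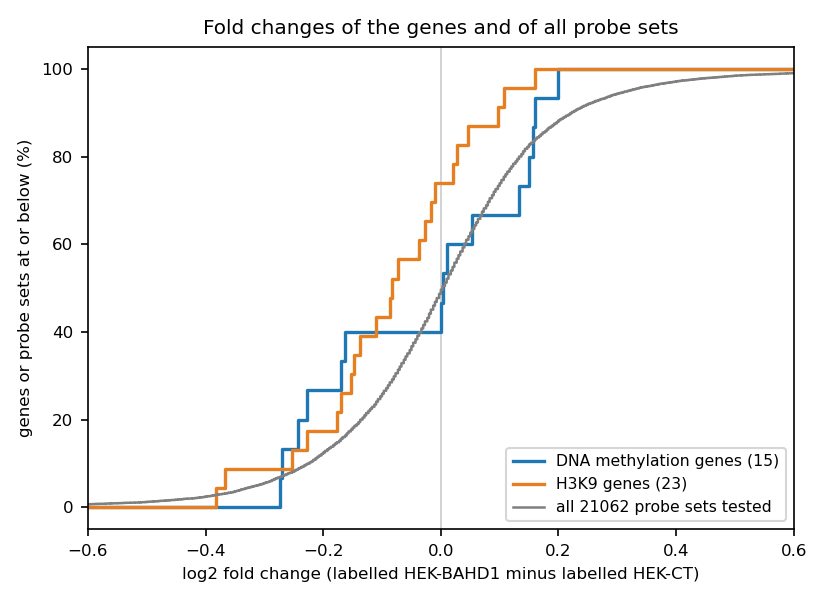
Percentage of genes or probe sets (vertical axis) at or below a given log2 fold change, HEK-BAHD1 minus HEK-CT (horizontal axis, shown from -0.6 to 0.6), for the 15 DNA methylation genes, the 23 H3K9 genes and all 21062 probe sets tested. The H3K9 curve runs left of the curve of all probe sets over most of the range and crosses the middle near its median of -0.083, whereas the DNA methylation curve has a step on each side of 0.

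Values of related genes were also set against each other within each array, because scaling a whole array leaves such differences as they are. The pairs were chosen after the values were seen, and 3 arrays against 3 cannot reach an exact two-sided permutation p below 0.1 (0.1778 after adjustment over 16 pairs). The size of a difference within an array also reflects the probes, so only its shift between labels is read. The difference DNMT1 minus DNMT3A was 3.07, 3.11 and 3.25 on HEK-BAHD1 arrays, against 3.66, 3.54 and 3.64 on HEK-CT arrays, a shift of -0.47. DNMT1 minus DNMT3B shifted by -0.43 without overlap, and DNMT3A minus DNMT3B overlapped between labels (shift 0.04). The shift of every pair, those of DNMT1 included, follows from the values of its own genes and adds no support to them. MPHOSPH8 minus MORC2 was -1.07, -1.10 and -1.11 on HEK-BAHD1 arrays, against -0.65, -0.70 and -0.69 on HEK-CT arrays, a shift of -0.41. That shift restates the log2 fold changes of -0.25 for MPHOSPH8 and 0.16 for MORC2. Both groups of this pair were tight and well apart, and MPHOSPH8 minus TASOR shifted by -0.14 without overlap.

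ATF7IP minus SETDB1 was 1.09, 1.13 and 0.92 on HEK-BAHD1 arrays, against 1.43, 1.41 and 1.37 on HEK-CT arrays, a shift of -0.36. That shift restates the log2 fold changes of -0.38 for ATF7IP and -0.03 for SETDB1. ATF7IP minus ATF7IP2 overlapped, with a shift of -0.02. TET2 minus TET1 and TET2 minus TET3 shifted by -0.33 and -0.42 without overlap. Among the HP1 genes, CBX3 minus CBX5 and CBX1 minus CBX5 shifted by 0.12 and 0.06 without overlap. In all, 9 of the 16 chosen pairs did not overlap, each at the smallest exact permutation p of 0.1. Single probe sets did not overlap in 33.6% of cases, but that is no rate for pairs. Several chosen pairs share a gene, and no rate over other pairs of genes was computed. UHRF2 minus UHRF1, SETDB2 minus SETDB1, SUV39H2 minus SUV39H1, CBX3 minus CBX1 and DNMT1 minus UHRF1 overlapped, with shifts of -0.06, -0.20, -0.03, 0.06 and -0.11.

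**Figure D4:**
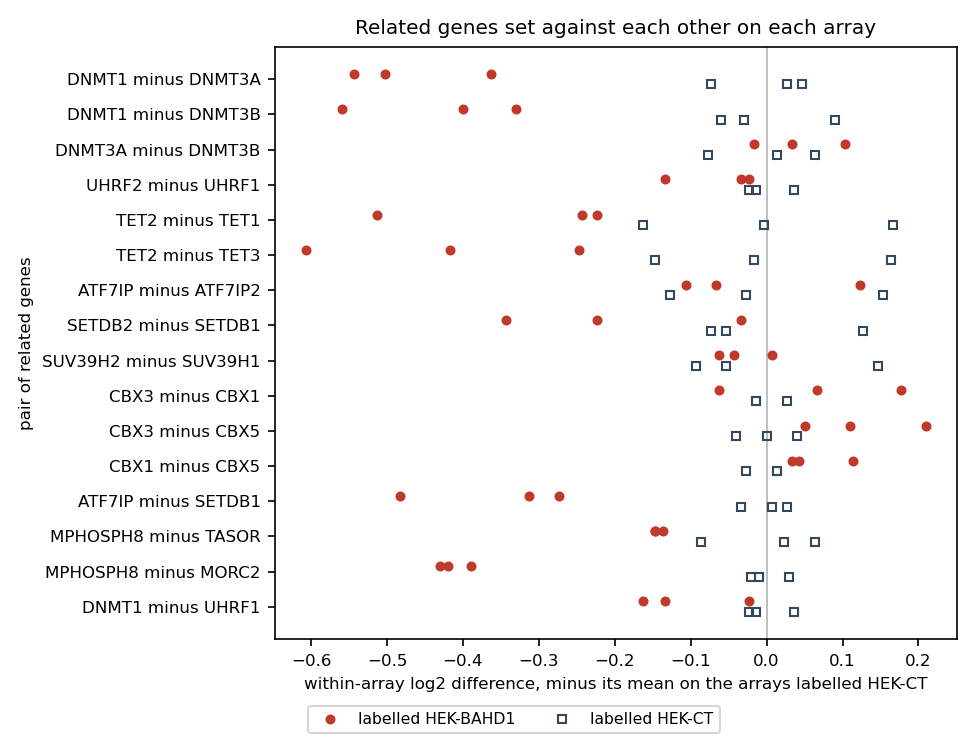
Within-array log2 difference between the 2 genes of each of 16 pairs (rows), minus its mean on the arrays labelled HEK-CT (horizontal axis). Filled circles are arrays labelled HEK-BAHD1 and open squares arrays labelled HEK-CT. Circles and squares are separate for 9 pairs, with the largest shift, -0.47, for DNMT1 minus DNMT3A.

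Further genes of both pathways were taken from lists. Of 27 other measured DNA methylation genes, 1 was called higher (3.70%) and 4 lower (14.8%), against 6.79% higher and 6.39% lower over all probe sets, with a median log2 fold change of -0.05. IDH2, a mitochondrial enzyme whose product TET enzymes use as a cosubstrate, rose by 0.56 on the log2 scale. LRIF1, which binds HP1 but was counted in this list, fell by 0.54. The histone H3K36 methyltransferase SETD2 fell by 0.33, the methyl-CpG reader MBD1 by 0.31 and SMCHD1, a protein of silent chromatin on the inactive X, by 0.27. Of 37 other H3K9 and heterochromatin genes, 2 were called higher (5.41%) and 6 lower (16.2%), with a median of -0.11. For 20 of them (54.1%) all HEK-BAHD1 arrays were lower and for 5 all were higher, against 16.9% and 16.7% of all probe sets. PRDM16 and MECOM, related PR domain proteins, rose by 0.62 and 0.45. A second, dimmer MECOM probe set had a log2 fold change of 0.18 and was not called (limma adjusted p = 0.162). The ATPase MORC3 fell by 0.52, the KDM3 relative JMJD1C and the remodeler subunit BAZ1A each by 0.38, and ZNF644, a partner of the H3K9 dimethylation enzymes, by 0.30.

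Genes of S phase and proliferation were read beside these results, because DNMT1, UHRF1, HELLS and CHAF1A are known to follow DNA replication. Of 28 such genes, 1 was called higher (3.57%) and 2 lower (7.14%), shares below and near those of all probe sets. HEK-BAHD1 arrays were all lower for 10 of the 28 (35.7%) and all higher for 4, against 16.9% and 16.7% of all probe sets. At an unadjusted p under 0.05 from limma, 10 were lower and 2 higher, against 14.8% and 14.5% of all probe sets. The mean was lower on HEK-BAHD1 arrays for 21 of the 28 (75.0%), against 47.5% of all genes with a probe set of their own, and their median log2 fold change was -0.047 (range -0.29 to 0.31). CCNE1 rose by 0.31, while CCNE2 fell by 0.29 and TYMS by 0.25. TYMS lies on chromosome 18, as do MBD1 and SMCHD1 of the lists above, and MORC3 lies on chromosome 21. MBD2, also on chromosome 18, was at -0.06 and was not called. No median is given here for chromosomes 18 and 21, and the part of location in these calls was not tested. LPE called 1 higher and 4 lower. Their part in the values of DNMT1, UHRF1, HELLS and CHAF1A was not tested. Median log2 fold changes of the chromosomes that hold the 38 genes lay between -0.023 and 0.04, and with them taken off DNMT1 was at -0.26, UHRF2 at -0.23, ATF7IP at -0.38, ATF7IP2 at -0.41 and MPHOSPH8 at -0.23.

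Single arrays mattered for most calls. ATF7IP passed in each fit that left out 1 array, with limma adjusted p between 0.0176 and 0.0446. ATF7IP2 did not pass without HEK-BAHD1 replicate 2 (adjusted p = 0.0552), HEK-BAHD1 replicate 3 (0.0587) or HEK-CT replicate 3 (0.0614). DNMT1 passed only without HEK-CT replicate 2, MPHOSPH8 only without HEK-BAHD1 replicate 2, and UHRF2 in none of these fits (adjusted p = 0.056 to 0.11). HEK-BAHD1 replicate 3 held the lowest of the 6 values for 16 of the 38 genes, against 23.0% of all probe sets. Without it 1 of the 38 genes was called lower, as without HEK-CT replicate 3. The fold changes kept their sign for all 5 called genes, between -0.44 and -0.20 over all alternatives.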

How the data were processed

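Total RNA of 3 HEK-BAHD1 and 3 HEK-CT cultures was hybridized to Affymetrix HuGene 1.0 ST arrays. The authors made the deposited log2 values, given with 2 decimals, with RMA, which turns probe intensities into 1 value per probe set after removing background and putting the arrays on a common scale. The sources used here do not name the RMA version or the annotation build. RMA evens out whole arrays, so a change shared by most genes would not be seen. The series number differs from the one in the paper, and the match rests on the lines and replicate numbers in the labels. The labels and files used here name no hybridization batch. According to the supplement, passage differed within HEK-BAHD1, but passages are not tied there to single arrays. The part of passage in the results was not tested.

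Of the probe sets, 19310 named 1 gene, 1752 several and 7807 none. From the deposited values, limma 3.58.1 in R 4.3.3 was fitted on the 21062 that name a gene, without a block, with Benjamini-Hochberg adjustment over all of them. Calls joined an adjusted p under 0.05 with a difference of medians above 0.2. The LPE test was written anew, using 100 bins of intensity and a spline fit (10 degrees of freedom). Exact permutation tests used scipy 1.17.1. On simulated arrays with 100 changed probe sets of each size among 21062, limma recovered 88 at a log2 size of 1 and 61 at 0.5, with 10 false calls. The LPE test recovered 100 and 71, with 126 false calls. Smaller sizes, such as those of all 38 genes, were not simulated.

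The members, gene lists and tests were chosen with earlier results of these data known. Every member is named; array values are given for members called, separate between labels with medians over 0.2 apart, or named in the study, and, chosen after their values were seen, for MBD4 and for others whose groups were separate. Of the other lists, up to 6 called genes were named by size. Alternatives were LPE, a variance trend, other scalings, filters, no threshold on medians, a block for the replicate number, and fits without 1 array. DNA methylation and binding data of the study were not analysed here.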

Additional observations from a re-analysis of the deposited data

How the results depend on the processing

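The 5 genes called lower became 2 (ATF7IP and ATF7IP2) when probe sets without a gene name were also tested and 2 (the same genes) with the replicate number as a block, and numbered 1 to 3 when 1 array was left out. On the DNA methylation side the 2 lower calls became 1 (TET2) after quantile normalization, 0 with all probe sets, 0 with the block and 0 to 1 without 1 array, whereas H3K9 lower calls numbered 1 to 2 without 1 array. Without the threshold on medians 1 of the 38 genes, and so 1 DNA methylation gene, was called higher (DNMT3A). No gene of the 38 was called higher in the other alternatives. The H3K9 median of -0.083 became -0.12 with arrays centred on their medians. Over all probe sets, 806 to 938 were called higher and 581 to 937 lower without 1 array, against 1430 and 1345 with all, and 829 were lower with the block. Centring the arrays gave 1125 higher and 1912 lower. Deviations of same-numbered arrays correlated at -0.077, 0.074 and -0.038, and those of differently numbered arrays at -0.136 to 0.176. Same-numbered arrays were thus no more alike than others, but with 3 arrays a label such correlations cannot show that pairing is absent. A call lost under the block is not read as a weaker effect. The DNA methylation median of 0.003 became -0.033 with centred arrays and -0.016 after quantile normalization. Of the 14 genes recomputed under every alternative, 4 changed sign. SETDB1 was at 0.01, CBX5 at 0.04 and SP1 at 0.03 after quantile normalization, TRIM28 was at -0.01 with centred arrays, and without 1 array CBX5 ranged between -0.04 and 0.02 (0.02 without HEK-CT replicate 3) and SP1 between -0.06 and 0.02 (0.01 and 0.02 without HEK-BAHD1 replicates 2 and 3, 0.00 without HEK-CT replicate 2). The cause of these changes was not tested. DNMT1 and UHRF2 lost their calls after quantile normalization (limma adjusted p = 0.0878 and 0.0516), with all probe sets (0.0622 and 0.0527) and with the block (0.0739 and 0.0728), and MPHOSPH8 with all probe sets (0.0714) and the block (0.0962). With 3 arrays a label, small differences are at the limit of what these data can show.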
